A study of Homo sapiens with 6 samples.

Results

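Troponin is the calcium switch of the striated muscle thin filament, and triadin and calsequestrin 2 belong to the machinery that stores and releases that calcium. The 10 genes described here are the 3 troponin T genes (TNNT1, TNNT2, TNNT3), the 3 troponin I genes (TNNI1, TNNI2, TNNI3), the 2 troponin C genes (TNNC1, TNNC2), triadin (TRDN) and calsequestrin 2 (CASQ2). They were taken by name from a table of 62700 gene rows, and 9 of the 10 were among the 28485 genes with enough counts to be tested. TNNT3 was not among them. The members were chosen by how they differed between the genotypes in these same libraries, so their values are given below as a description, with no test.

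The libraries came from A673, an established cell line of Ewing sarcoma. Its oncogene EWS-FLI1 joins the EWSR1 protein to the DNA-binding part of FLI1, an ETS transcription factor. One group was 3 libraries of parental cells, with the fusion wildtype, and the other was 3 libraries of EWS-FLI1 knockout cells, and both were grown in DMEM with fetal bovine serum. The labels do not say how the knockout was made, whether it is 1 clone or a pool, or whether the replicates were separate cultures, so p-values measure only the spread between these libraries. The title of the series concerns alternative splicing, but the table holds counts per gene, so isoforms of the troponins or of triadin were not analysed here.

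In a muscle fibre, troponin C binds calcium, troponin I holds actin and myosin apart until it does, and troponin T ties both to tropomyosin. Slow skeletal muscle uses TNNT1, TNNI1 and TNNC1, fast skeletal muscle uses TNNT3, TNNI2 and TNNC2, and the heart uses TNNT2, TNNI3 and TNNC1. Triadin anchors calsequestrin, the calcium-binding protein of the sarcoplasmic reticulum, to the ryanodine receptors through which calcium leaves that store. Ewing sarcoma is not a muscle tumour, and these genes are not counted among its defining markers.

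Library totals ranged from 301605666 to 342624491.6 estimated counts. A level is given as CPM, counts per 1000000 scaled by TMM factors, and a log2 fold change is knockout over parental from edgeR, with its standard error (SE). With this model 73.8% of all tested genes were called at an adjusted p of 0.05, 36.3% higher and 37.5% lower in knockout, and the 2 groups did not overlap for 76.7%. Scaling by total count alone split the calls into 7370 higher and 14949 lower, against 10328 and 10687 with TMM, and moved the median log2 fold change of all tested genes from -0.06 to -0.48. All 12 Ewing sarcoma markers listed for the label of the line fell in knockout by edgeR's quasi-likelihood test, with a median log2 fold change of -3.07 against -0.06 over all tested genes. They included CCND1 (log2 fold change -1.80, SE 0.0492), CAV1 (-1.98, SE 0.0494), CD99 (-1.83, SE 0.0486) and PRKCB (-6.83, SE 0.0626), and their summed level was 4920 to 4980 CPM in parental and 1120 to 1190 CPM in knockout libraries. FLI1 ranged from 39.59 to 41.88 CPM over the parental libraries and from 50.75 to 54.84 CPM over the knockout libraries, and EWSR1 from 288.2 to 300 and from 240.6 to 252 CPM. A count per gene adds fusion and normal transcripts, so neither gene checks the genotype label.

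Of the 9 tested members, 4 stood lower in CPM in every knockout library than in any parental one (TNNT1, TNNI3, TRDN and CASQ2). Another 3 stood higher in every knockout library (TNNT2, TNNI2 and TNNC2), and for 2 the groups overlapped (TNNI1 and TNNC1). The groups did not overlap for 7 of the 9. These counts stand beside the shares over all genes given above, and nothing is read from them, because the same contrast was used to choose the members.

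The promoters of 4 members with large differences are shown first, since GGAA is the core of the sites that ETS factors bind. Each sequence is the 250 bases before the RefSeq start of the gene (GRCh38.p14, minus strand of the chromosome, printed 5′ to 3′ in the direction of the gene). Capitals mark every GGAA, which reads TTCC when it lies on the opposite strand. The first 3 belong to genes that were lower in knockout and the last to one that was higher.
TRDN, chr6:123636951-123637200: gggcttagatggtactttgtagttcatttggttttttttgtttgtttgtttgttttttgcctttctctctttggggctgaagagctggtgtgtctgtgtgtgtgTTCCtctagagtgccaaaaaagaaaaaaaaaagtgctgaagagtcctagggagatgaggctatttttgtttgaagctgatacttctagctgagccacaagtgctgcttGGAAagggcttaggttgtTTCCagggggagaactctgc
TNNT1, chr19:55149207-55149456: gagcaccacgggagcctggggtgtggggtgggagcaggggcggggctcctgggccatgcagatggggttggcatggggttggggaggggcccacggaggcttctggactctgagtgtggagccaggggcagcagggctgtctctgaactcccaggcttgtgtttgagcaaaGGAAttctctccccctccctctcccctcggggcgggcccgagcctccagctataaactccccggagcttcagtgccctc
TNNI3, chr19:55157733-55157982: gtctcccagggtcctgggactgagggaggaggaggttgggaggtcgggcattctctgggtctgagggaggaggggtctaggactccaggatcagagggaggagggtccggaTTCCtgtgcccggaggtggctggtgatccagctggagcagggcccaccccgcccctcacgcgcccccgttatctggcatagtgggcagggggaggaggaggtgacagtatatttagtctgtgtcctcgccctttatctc
TNNT2, chr1:201377681-201377930: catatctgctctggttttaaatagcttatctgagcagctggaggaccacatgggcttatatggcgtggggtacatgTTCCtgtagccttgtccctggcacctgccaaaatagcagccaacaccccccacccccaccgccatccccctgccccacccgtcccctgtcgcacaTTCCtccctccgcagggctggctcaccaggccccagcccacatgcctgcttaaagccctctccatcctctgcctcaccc

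RefSeq promoter sequences were matched for 5 of the 10 members, these 4 and CASQ2. Motifs were counted on both strands in windows from 250 bases before to 50 bases after the start and compared with 35116 promoters of the same length. GGAA was found in 95.5% of all promoters, with a median of 3 sites, so its presence does not set a promoter apart. TRDN and CASQ2 held 3 sites each, TNNT2 held 2, and TNNT1 and TNNI3 held 1 each. The direct repeat GGAAGGAA, in 3.67% of all promoters, was in none of the 5 windows. The E-box CAGCTG, the form bound by myogenic helix-loop-helix factors, was in 17.9% of promoters, with 2 sites in TNNT2 and 1 in TNNI3. Its looser form CANNTG, which includes CAGCTG, was in 68.7% of promoters and in all 5 windows, with 5 sites in TNNT2. CATTCC, the site of TEAD factors, was in 14% of promoters. It occurred once among the 5, in TNNT2 at bases -81 to -76, where it overlaps one of the capitalised cores. TATAAA, in 11.5% of promoters, was found once, in TNNT1 at bases -29 to -24. The MEF2 site was in 2.99% of promoters and once in CASQ2, and the CArG box, the site of SRF, was in 1.29% of promoters and in none of the 5. These matches describe letters in short windows, and binding was not measured.

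The troponin T genes exchanged places. TNNT1, the slow skeletal troponin T, stood at 68.52, 62.88 and 63.36 CPM in the 3 parental libraries and at 0.7589, 0.7481 and 0.7691 CPM in the 3 knockout libraries. Every parental library was far above every knockout library. The means were 64.92 ± 3.13 and 0.7587 ± 0.0105 CPM (SD, n = 3 each), 85.6-fold lower in knockout, with a log2 fold change of -6.42 (SE 0.0704).

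TNNT2, the cardiac troponin T that embryonic skeletal muscle also makes, stood at 0.4457, 0.3821 and 0.3397 CPM in parental and at 10.91, 12.69 and 12.51 CPM in knockout libraries. Here each knockout library was above each parental one. The means of 0.3891 ± 0.0533 and 12.04 ± 0.977 CPM (SD, n = 3 each) differed 30.9-fold, with a log2 fold change of 4.95 (SE 0.104). TNNT3, the fast skeletal troponin T, had 0 counts in all 3 parental libraries and 6, 10 and 1 counts in the knockout libraries. A library with 0 counts allows up to 3, which is 0.00752 to 0.0117 CPM here, by counting error only. The 17 knockout counts were 8.3-fold higher than a floor of 3 counts over the parental group. A 95% interval from the counts alone began at 6.04-fold (exact conditional binomial). With 1 count in the third knockout library, TNNT3 was at the edge of detection in every library and failed the filter for the test.

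**Figure D1:**
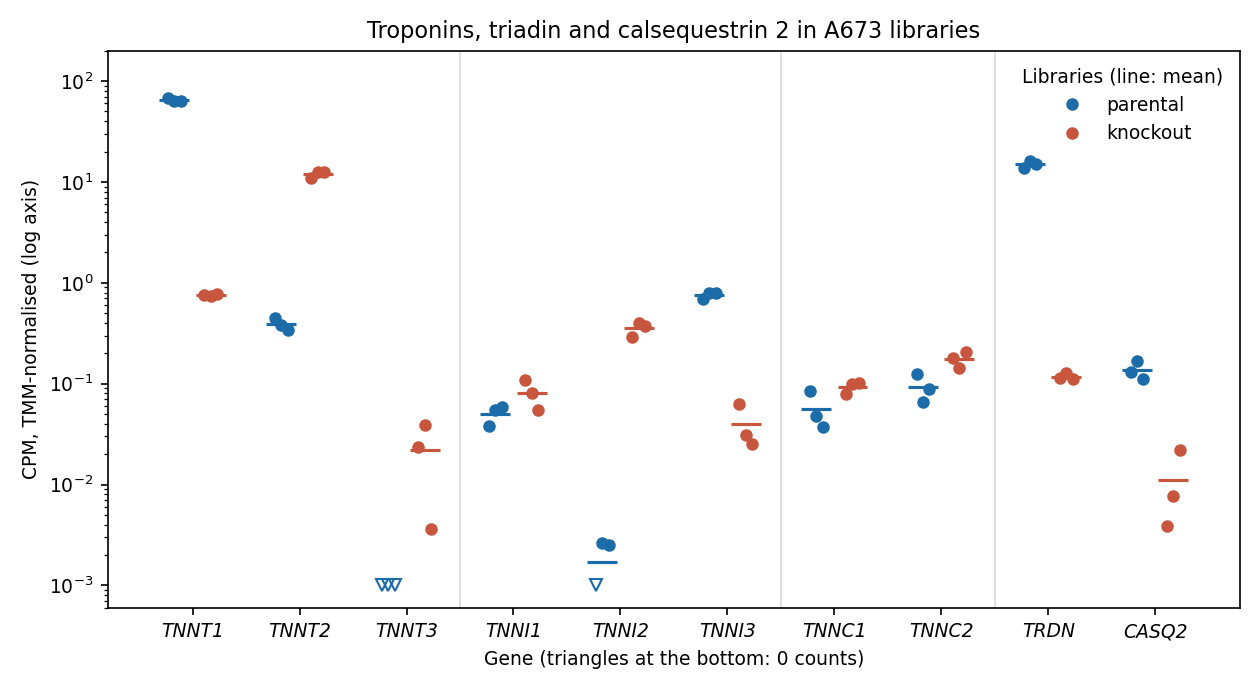
CPM of the 10 genes in each library on a log axis, with parental libraries in blue, knockout libraries in red and a line at each group mean; open triangles at the bottom stand for 0 counts. TNNT1, TRDN, TNNI3 and CASQ2 sit higher in parental, TNNT2, TNNI2, TNNC2 and TNNT3 sit higher in knockout, and the groups overlap for TNNI1 and TNNC1.

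The troponin I genes also differed in opposite directions, at levels far below those of troponin T. TNNI3, the cardiac troponin I, stood at 0.6974, 0.7976 and 0.7843 CPM in parental and at 0.06259, 0.03087 and 0.0254 CPM in knockout libraries. The parental libraries were all above the knockout ones, whose 16, 8 and 7 counts leave 1 library over the minimum of 10 counts. The means of 0.7597 ± 0.0544 and 0.03962 ± 0.0201 CPM (SD, n = 3 each) differed 19.2-fold, with a log2 fold change of -4.26 (SE 0.257).

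TNNI2, the fast skeletal troponin I, had 0, 1 and 1 counts in parental and 75, 104 and 102 counts in knockout libraries, the latter 0.2934, 0.4013 and 0.3701 CPM. It passed the filter through the knockout libraries only. Scaled for library size, knockout was 206-fold higher, with a 95% interval of 56.4 to 1710 from the counts alone (exact conditional binomial). The fitted log2 fold change was 7.39 (SE 0.465), and it depends on the prior count because the parental libraries hold 2 counts in all. TNNI1, the slow skeletal troponin I, stood at 0.03793, 0.05429 and 0.05853 CPM in parental and at 0.1096, 0.08116 and 0.05444 CPM in knockout libraries. The third knockout library lay inside the parental range, and the log2 fold change was 0.70 (SE 0.393).

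Troponin C was scarce in both genotypes. TNNC1, the slow skeletal and cardiac troponin C, stood at 0.08406, 0.04764 and 0.03762 CPM in parental and at 0.07824, 0.1003 and 0.1016 CPM in knockout libraries. The first parental library lay among the knockout libraries, and the log2 fold change was 0.73 (SE 0.38). TNNC2, the fast skeletal troponin C, stood at 0.1235, 0.06616 and 0.08777 CPM in parental and at 0.1799, 0.1428 and 0.2068 CPM in knockout libraries. On this scale the groups did not overlap, and the log2 fold change was 0.93 (SE 0.296). The raw counts behind them, 47, 25 and 35 in parental and 46, 37 and 57 in knockout libraries, did overlap, so the separation of TNNC2 rests on the scaling, and with total count alone its log2 fold change was 0.51.

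Set within each subunit, the exchange of paralogues was nearly complete for troponin T, less complete for troponin I and not seen for troponin C. To compare genes, counts were divided by coding length. TNNT1 made up 99.4%, 99.44% and 99.5% of troponin T in the parental libraries and 6.922%, 5.925% and 6.183% in the knockout libraries, while TNNT2 went from 0.5548% ± 0.0533 to 93.47% ± 0.529 (SD, n = 3 each). Within troponin I, TNNI3 made up 94.24%, 92.57% and 91.95% in parental and 11.94%, 5.276% and 4.945% in knockout libraries. TNNI2 made up 64.57%, 79.14% and 83.15% of troponin I in the knockout libraries, and TNNI1 went from 6.846% ± 0.995 to 16.99% ± 5.92. Within troponin C, TNNC2 was 62.69% ± 6.48 in parental and 65.3% ± 5.71 in knockout libraries, a difference smaller than the spread between libraries. Undivided counts gave nearly the same shares, with TNNT1 at 99.41% ± 0.0571 and 5.944% ± 0.487. Shares within a library do not depend on how libraries are scaled.

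**Figure D2:**
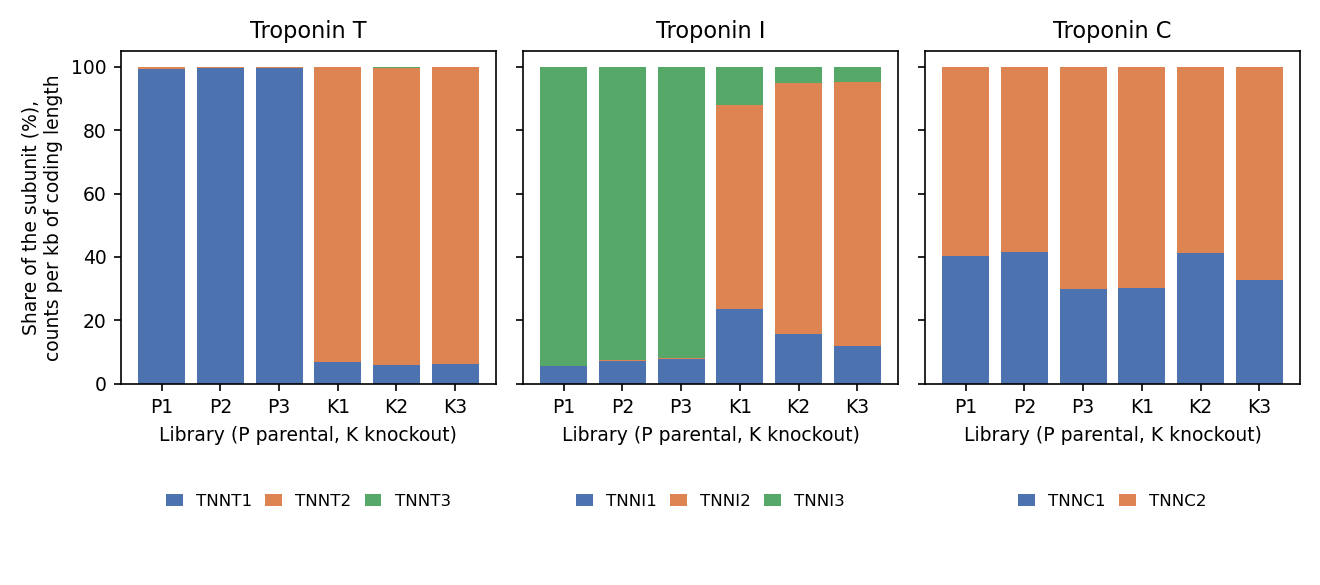
Share of each paralogue within troponin T, troponin I and troponin C in every library (percent of counts per kilobase of coding length; P parental, K knockout, numbered by replicate). TNNT1 and TNNI3 fill most of the parental bars, TNNT2 and TNNI2 most of the knockout bars, and the 2 troponin C genes keep similar shares.

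The paralogues that led in each genotype did not form 1 of the sets known from adult muscle. In parental libraries the leading paralogues were slow skeletal for troponin T, cardiac for troponin I and fast skeletal for troponin C. In knockout libraries they were cardiac for troponin T and fast skeletal for both others. Within troponin C the lead rested on few counts, 107 of TNNC2 against 65 of TNNC1 in parental and 140 against 74 in knockout libraries. Summed per kilobase of coding length, troponin T stood at 78.28 ± 3.8 CPM in parental and 14.4 ± 1.09 CPM in knockout libraries, and troponin I at 1.299 ± 0.108 and 0.8586 ± 0.0612. Troponin C stood at 0.3095 ± 0.106 and 0.561 ± 0.0712 CPM per kilobase (SD, n = 3 each). On this scale troponin T transcripts were the most abundant of the 3 subunits in each library, and protein was not measured.

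Per kilobase of coding length, the parental order of levels began with TNNT1 at 77.84 ± 3.75 CPM, TRDN at 6.868 ± 0.562, TNNI3 at 1.206 ± 0.0864 and TNNT2 at 0.4353 ± 0.0597. Below them TNNC2 at 0.1926 ± 0.0603, TNNC1 at 0.1168 ± 0.0506, CASQ2 at 0.1136 ± 0.0236 and TNNI1 at 0.08957 ± 0.0194 had overlapping spreads. In knockout libraries the order began with TNNT2 at 13.46 ± 1.09, TNNT1 at 0.9097 ± 0.0126, TNNI2 at 0.65 ± 0.102 and TNNC2 at 0.3677 ± 0.067 CPM per kilobase (SD, n = 3 throughout). TNNC1 at 0.1933 ± 0.0272 and TNNI1 at 0.1457 ± 0.0492 followed, with overlapping spreads. TNNI3 at 0.06288 ± 0.0319, TRDN at 0.05386 ± 0.00378 and TNNT3 at 0.02713 ± 0.0217 came next, and CASQ2 was lowest at 0.009325 ± 0.0079, within the spread of TNNT3.

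TRDN had the largest negative log2 fold change of the members. Triadin stood at 13.7, 16.14 and 15.22 CPM in parental and at 0.1134, 0.1273 and 0.1126 CPM in knockout libraries. The parental libraries held 5217.03, 6097 and 6070 estimated counts and the knockout libraries 29, 33 and 31.045. The means of 15.02 ± 1.23 and 0.1178 ± 0.00826 CPM (SD, n = 3 each) differed 128-fold, with a log2 fold change of -6.99 (SE 0.11).

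The knockout counts of TRDN and TNNT1 were close to the smallest shares that abundant genes kept in the other genotype. Among 3990 genes with a mean of at least 20000 parental counts, the 20 with the lowest share in knockout still kept a median of 0.617% of their parental counts, and the converse share over 3251 genes was 0.586%. TRDN kept 0.535% of its raw parental counts in knockout, below that median, and TNNT1 kept 0.799%. With the median share subtracted, as TRDN lies below it, no TRDN count was left in the 3 knockout libraries, and the 128-fold difference is that of the counts as deposited. TNNT1 then had 39.52, 39.4 and 57.52 counts in the knockout libraries, and its log2 fold change moved from -6.42 to -8.54. TNNI3 kept 3.52%, and TNNT2 in parental libraries kept 4.72% of its knockout counts, well above that share. What the 0.617% consists of was not tested.

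CASQ2, the cardiac and slow skeletal calsequestrin, was rare in both genotypes. It stood at 0.1314, 0.1662 and 0.1103 CPM in parental and at 0.003913, 0.007717 and 0.02186 CPM in knockout libraries, where it held 1.00019, 2.00007 and 6.02426 estimated counts. It passed the filter through the parental libraries only, and no knockout library came near the parental range. Scaled for library size, parental was 11.9-fold higher, with a 95% interval of 6.12 to 26.5 from the counts alone. The fitted log2 fold change was -3.54 (SE 0.483), and without knockout replicate 3 it was -4.45, so that library with 6 of the 9 counts weighs on the size. In bulk RNA, fewer cells that make a transcript and less of it per cell cannot be told apart, for CASQ2 as for the other members.

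The partners of triadin at the site of calcium release moved both ways. Of 28 other genes of the calcium release unit 26 were tested, and by edgeR's quasi-likelihood test 14 fell, 10 rose and 2 did not pass. The median log2 fold change was -0.28, against -0.06 over all tested genes. It was -0.70 with total count alone, -0.48 with upper quartile factors, -0.50 with a filter of 1 CPM in 3 libraries, -0.11 without knockout replicate 1 and -0.16 without parental replicate 3. The ryanodine receptors, the channels to which triadin binds, split by isoform. RYR1, the skeletal channel, fell from 4.272 ± 0.287 to 0.1209 ± 0.0116 CPM (log2 fold change -5.15, SE 0.138). RYR2, the cardiac channel, fell from 1.155 ± 0.0633 to 0.02639 ± 0.00935 CPM (-5.42, SE 0.234). RYR3, the broadly expressed channel, rose from 0.3382 ± 0.0716 to 1.596 ± 0.0533 CPM (2.24, SE 0.155).

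Among the other proteins that join triadin in the reticulum, ASPH, whose locus encodes junctin as well as aspartyl hydroxylase, rose from 48.85 ± 1.23 to 331.7 ± 18.5 CPM (log2 fold change 2.76, SE 0.0541). A gene-level count cannot say which of these products was made. HRC, a histidine-rich calcium-binding partner of triadin, fell from 0.4936 ± 0.0477 to 0.04917 ± 0.0122 CPM (-3.31, SE 0.249). CASQ1, the fast skeletal calsequestrin, was at 0.05919 ± 0.0048 and 0.09411 ± 0.0287 CPM and did not pass (edgeR adjusted p = 0.0929). Neither calsequestrin gene thus reached 1 CPM in any group.

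The junctophilins, which hold the reticulum close to the surface membrane, showed an exchange of family members like that of the troponins. JPH2, the cardiac form, rose from 0.3795 ± 0.0383 to 30.48 ± 1.2 CPM (log2 fold change 6.33, SE 0.081). The other 3 fell by the same test, JPH1 from 5.587 ± 0.27 to 0.1072 ± 0.0143 CPM (-5.70, SE 0.131), JPH4 from 4.3 ± 0.336 to 0.09291 ± 0.0581 CPM (-5.53, SE 0.294) and JPH3 from 3.9 ± 0.271 to 0.6395 ± 0.118 CPM (-2.61, SE 0.126). JPH1, JPH3 and JPH4 were named after their values were seen.

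The most abundant genes of the list that rose were FKBP1A, a ryanodine receptor stabiliser (1.02, SE 0.0487), SELENON, a selenoprotein of the reticulum (1.36, SE 0.0505), ASPH, and BIN1, which shapes the transverse tubules (0.96, SE 0.0503). The most abundant that fell were the calcium channel subunits CACNA2D1 (-0.46, SE 0.0566), CACNB2 (-5.35, SE 0.0737) and CACNB1 (-0.19, SE 0.0696) and the lipid phosphatase MTM1 (-0.37, SE 0.0646). CACNB1 lost its call with DESeq2 (adjusted p = 0.0579) and without parental replicate 1 or 3 or knockout replicate 1 (adjusted p = 0.103, 0.109 and 0.146 with edgeR). CACNA1S, the voltage sensor of skeletal muscle, had too few counts to be tested and was at 0 in all knockout libraries.

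**Figure D3:**
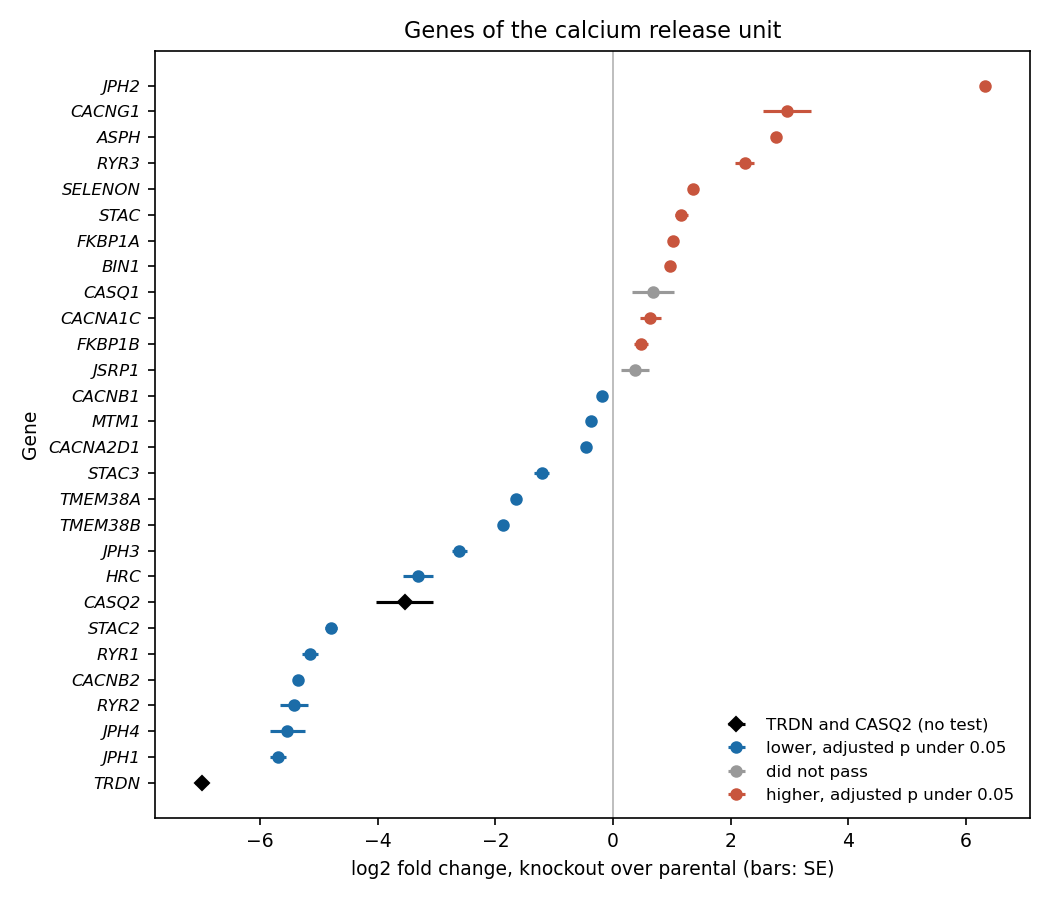
log2 fold change, knockout over parental, of TRDN and CASQ2 (black diamonds, no test) and of the 26 tested genes of the calcium release unit, with bars for the SE; red rose, blue fell and grey did not pass at an adjusted p of 0.05. JPH2 at 6.33 and RYR3 at 2.24 stand opposite to JPH1 at -5.70, RYR2 at -5.42 and RYR1 at -5.15.

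On the thin filament, the partners that troponin sits on mostly rose. Of 24 listed genes 22 were tested, of which 15 rose, 4 fell and 3 did not pass by edgeR's quasi-likelihood test. The median log2 fold change was 1.09, against -0.06 over all tested genes. It was 0.67 with total count alone, 0.70 with DESeq2 and 3.09 with a filter of 1 CPM in 3 libraries. TPM1, the tropomyosin that troponin T binds in the heart and fast muscle, rose from 15.9 ± 0.228 to 1097 ± 29.7 CPM (6.11, SE 0.0583), and TPM2 from 12.39 ± 1.06 to 230.4 ± 12.4 CPM (4.22, SE 0.0677). TPM4, mainly a cytoskeletal tropomyosin, rose from 585 ± 7.62 to 1723 ± 72 CPM (1.56, SE 0.0489). TPM3 was at 457.1 ± 5.24 and 521 ± 23.8 CPM, and its log2 fold change of 0.19 became -0.24 when libraries were scaled by total count alone and -0.016 with upper quartile factors. Tropomyosins serve non-muscle actin too, and gene-level counts do not separate muscle from non-muscle forms.

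The 2 striated muscle actins stayed scarce. ACTA1, the skeletal actin, was at 0.138 ± 0.0179 and 0.1508 ± 0.0266 CPM and did not pass (edgeR adjusted p = 0.667). ACTC1, the cardiac actin, rose from 0.02527 ± 0.0245 to 0.8046 ± 0.0722 CPM (log2 fold change 4.98, SE 0.394). CAPZB, which caps actin filaments, rose (2.13, SE 0.049), while the filament organisers NEB (-0.44, SE 0.177), NEBL (-2.46, SE 0.254), NRAP (-4.44, SE 0.489) and TMOD4 (-1.48, SE 0.18) fell. All of these fallers were below 1 CPM on average in both groups. With a filter of 1 CPM in 3 libraries 0 thin filament partners were lower. NEB lost its call with DESeq2 (adjusted p = 0.0902) and without parental replicate 2 or 3 or knockout replicate 2 (adjusted p = 0.0877, 0.157 and 0.161 with edgeR).

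Genes that return calcium to stores or bind it mostly rose, though this balance moved with the scaling. Of 28 tested genes 19 rose, 4 fell and 5 did not pass by edgeR's quasi-likelihood test. The median log2 fold change was 0.45, and 0.027 with total count alone, 0.25 with upper quartile factors and 0.27 with a filter of 1 CPM in 3 libraries. With total count alone 12 fell, and with upper quartile factors 8. The abundant risers were the chaperone calreticulin CALR (1.69, SE 0.0492), calumenin CALU (2.09, SE 0.0531) and calmodulin 2 CALM2 (0.96, SE 0.0486), and the list also holds RCN1, whose value of 0.16 (SE 0.0502) became -0.27 with total count alone and -0.049 with upper quartile factors. The genes that fell included reticulocalbin RCN3 (-0.47, SE 0.0836), the receptor ITPR1 (-0.58, SE 0.0696) and the calcium pump ATP2A3 (-2.00, SE 0.134).

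Markers of muscle cells, like the members, differed in both directions. Of 42 listed muscle cell markers 34 were tested, and 16 rose, 12 fell and 6 did not pass by edgeR's quasi-likelihood test. The median log2 fold change was 0.25 and became -0.17 with total count alone, 0.053 with upper quartile factors, 0.017 with a filter of 1 CPM in 3 libraries and 0.15 without knockout replicate 3. Their summed level was 106 to 114 CPM in parental and 132 to 143 CPM in knockout libraries. SMPX was at 0 in all 6 libraries and MYBPH in all parental ones. The fusion factor gene MYMK and creatine kinase CKM were below 0.1 CPM on average in both groups, and desmin DES, at 0.07695 ± 0.00845 and 0.03719 ± 0.0359 CPM, did not pass (edgeR adjusted p = 0.0666).

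The markers that rose included the acetylcholine receptor subunit CHRNA1 (7.82, SE 0.0898), the thick filament protein MYBPC2 (5.23, SE 0.0965), the stress-responsive ANKRD1 (6.81, SE 0.147) and titin TTN (0.26, SE 0.0936). TTN became -0.16 with total count alone and lost its call with upper quartile factors (edgeR adjusted p = 0.572) and without knockout replicate 1 (adjusted p = 0.0692). The M-band protein MYOM2 (-5.09, SE 0.084), the Z-disc proteins ACTN2 (-5.63, SE 0.0894) and MYOZ3 (-3.13, SE 0.147) and the enolase ENO3 (-0.87, SE 0.227) fell. ENO3 lost its call without any 1 of the parental libraries or without knockout replicate 2 (edgeR adjusted p = 0.0504 to 0.0697). The part of muscle-like cells in the members' values was not tested.

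The muscle myosins, the motors of the thick filament, mostly fell. Of 12 tested genes 8 fell, 2 rose and 2 did not pass by edgeR's quasi-likelihood test. The median log2 fold change was -1.08, and -6.14 with a filter of 1 CPM in 3 libraries and -0.73 without knockout replicate 1. Their summed level went from 32.8 to 34 CPM in parental to 5.09 to 6.35 CPM in knockout libraries. The adult fast heavy chains MYH2 (-6.93, SE 0.0876), MYH1 (-7.05, SE 0.242) and MYH4 (-6.10, SE 0.225) and the kinase MYLK3 (-0.58, SE 0.171) fell, and the cardiac and slow chain MYH7B (1.43, SE 0.127) and the atrial light chain MYL4 (3.58, SE 0.503) rose. MYH2 kept 0.557% and MYH1 0.519% of their raw parental counts in knockout, as low as TRDN. So the parental libraries held transcripts of fast myosins beside those of slow troponin T and cardiac troponin I.

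The factors that switch on troponin genes in muscle precursors were nearly silent in both genotypes. Over all 6 libraries MYOD1 had 13 counts in total, MYOG had 5, and MYF5 and MYF6 had 0. None of the 4 was tested. PAX7, a factor of muscle stem cells, fell from 2.519 ± 0.114 to 0.03535 ± 0.00723 CPM (log2 fold change -6.14, SE 0.184). MEF2C was at 1.002 ± 0.0228 and 1.308 ± 0.143 CPM, and its log2 fold change of 0.39 became -0.035 with total count alone and lost its call with upper quartile factors (edgeR adjusted p = 0.193).

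Of the 31 listed muscle transcription factors 23 were tested, and 17 rose, 5 fell and 1 did not pass by edgeR's quasi-likelihood test. The median log2 fold change was 1.04, and 0.61 with total count alone. TEAD1, of the family that recognises CATTCC, rose from 60.03 ± 2.62 to 207.5 ± 15.6 CPM (1.79, SE 0.057). SRF (1.04, SE 0.0517), its coactivator MRTFA (1.57, SE 0.0488) and MEF2D (1.24, SE 0.0493) rose as well, and so did MYOCD, the cardiac and smooth muscle coactivator of SRF (7.64, SE 0.167), named after its value was seen. PAX3 (-0.32, SE 0.0501), HAND2 (-3.63, SE 0.0633) and NKX2-5 (-0.44, SE 0.0727) fell with PAX7. Gene levels do not show whether any of these factors acted on a troponin gene.

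The positions of the members add a second view. Troponin T and I genes lie in pairs in the genome. TNNT1 (chr19:55132794-55149354) and TNNI3 (chr19:55151767-55157773), both on the minus strand of GRCh38, are 2412 bases apart with no annotated gene between them, and both stood lower in knockout. The next gene beyond TNNI3, DNAAF3, a dynein assembly factor of cilia, fell from 10.73 ± 0.729 to 1.005 ± 0.072 CPM by edgeR's quasi-likelihood test (log2 fold change -3.42, SE 0.0869). On the other side of TNNT1, PPP1R12C rose (0.51, SE 0.0574), a call lost with total count alone (edgeR adjusted p = 0.196).

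TNNT2 (chr1:201359008-201377762) and TNNI1 (chr1:201403768-201429866), 26005 bases apart on the minus strand, did not differ alike. LAD1, a basement membrane anchor gene that overlaps TNNT2, rose from 0.01133 ± 0.00672 to 0.4219 ± 0.062 CPM (log2 fold change 5.18, SE 0.346). PKP1, a desmosome protein below TNNT2, fell from 1212 ± 38.1 to 163.4 ± 4.08 CPM (-2.89, SE 0.051), and PHLDA3 above TNNI1 fell (-1.13, SE 0.0599). LAD1 and TNNT2 lie on the same strand, so they may share reads where they overlap.

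TNNI2 (chr11:1838989-1841680) and TNNT3 (chr11:1919562-1938706), on the plus strand, are 77881 bases apart with 6 annotated genes between them. Both were near 0 in parental libraries and had more counts in knockout libraries. Of their neighbours, SYT8, a synaptotagmin beside TNNI2, rose from 0.0563 ± 0.00903 to 1.998 ± 0.405 CPM (log2 fold change 5.14, SE 0.2), and LSP1, an actin-binding protein between the 2 troponin genes, rose from 0.4436 ± 0.0221 to 78.23 ± 1.97 CPM (7.46, SE 0.0708). MRPL23 beyond TNNT3 was at 19.89 ± 1.58 and 24.56 ± 0.588 CPM, with a log2 fold change of 0.30 that became -0.12 with total count alone and lost its call with upper quartile factors (edgeR adjusted p = 0.134). The other genes stand alone: TNNC1 (chr3:52451102-52454070) lies between SEMA3G, which rose (3.20, SE 0.171), and NISCH, which rose (0.73, SE 0.0572). TNNC2 (chr20:45823214-45833745) lies between UBE2C, which fell (-0.43, SE 0.0473), and SNX21, which rose (1.91, SE 0.0535). CASQ2 (chr1:115700007-115768781) has VANGL1 on 1 side, which rose (1.58, SE 0.0508), and NHLH2 on the other, which was not tested.

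TRDN (chr6:123216339-123637093, minus strand) spans 420755 bases and up to 41 exons, and both of its nearest protein-coding neighbours fell. CLVS2, a lipid-binding clavesin of neurons beyond the triadin 3′ end, fell from 165.3 ± 5.87 to 1.367 ± 0.0187 CPM by edgeR's quasi-likelihood test (log2 fold change -6.92, SE 0.0652). It kept 0.565% of its raw parental counts, close to the 0.535% of TRDN. NKAIN2, a membrane partner of the sodium pump whose start lies 167048 bases upstream of the TRDN start, fell from 1.862 ± 0.0214 to 0.06117 ± 0.00617 CPM (-4.93, SE 0.174). TRDN-AS1, annotated within the TRDN span, stood at 0.1193, 0.1429 and 0.1192 CPM in parental and at 0.09408, 0.09759 and 0.08716 CPM in knockout libraries and did not pass (log2 fold change -0.46, SE 0.289, edgeR adjusted p = 0.159). It passed as lower with total count alone (-0.88, edgeR adjusted p = 0.00766). Upper quartile factors gave the same call (-0.66, edgeR adjusted p = 0.0353). Without strand, reads of TRDN-AS1 and TRDN may be mixed.

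In a window of 1 Mb on each side of TRDN, chosen after these values were seen, 12 of 19 other annotated genes were tested, and 6 fell, 3 rose and 3 did not pass. Beyond CLVS2 on the same side of TRDN, PKIB, an inhibitor of protein kinase A, rose from 0.881 ± 0.0553 to 28.85 ± 1.26 CPM (log2 fold change 5.03, SE 0.0722), SERINC1 rose (0.74, SE 0.0525), and HSF2 fell (-0.36, SE 0.0544). AL591428.1, beside CLVS2, fell too (-4.34, SE 0.231).

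**Figure D4:**
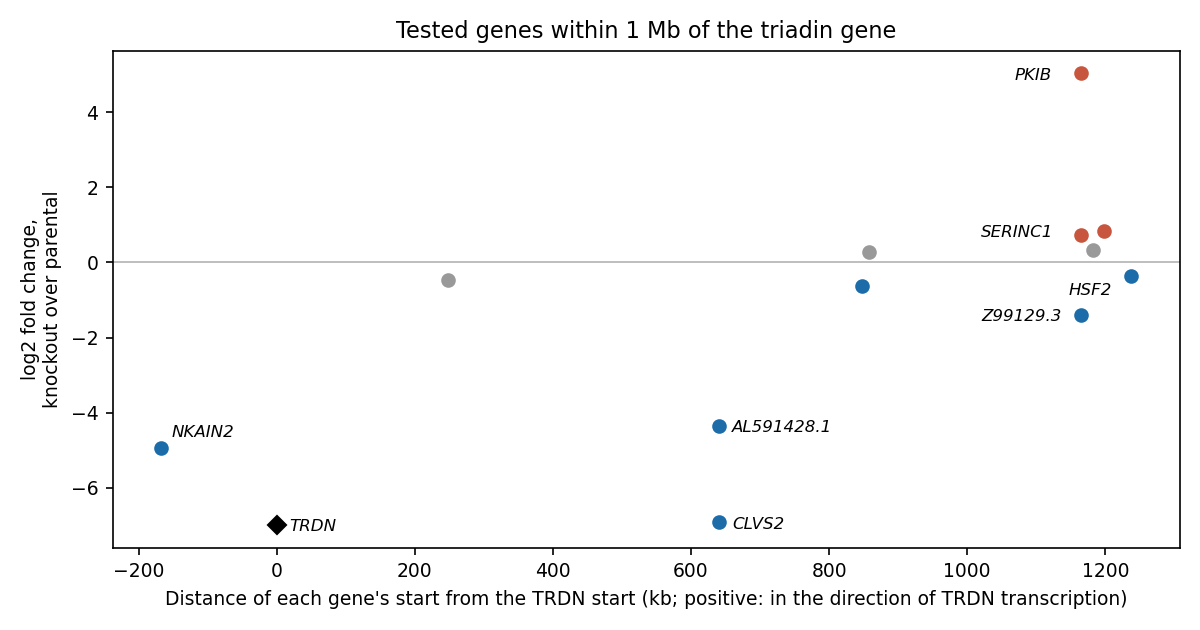
log2 fold change, knockout over parental, of TRDN (black diamond, no test) and of the 12 tested genes within 1 Mb of its ends against the distance of each gene's start from the TRDN start in kb; red rose, blue fell and grey did not pass at an adjusted p of 0.05. TRDN, CLVS2, AL591428.1 and NKAIN2 lie between -4.34 and -6.99, and PKIB lies at 5.03.

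Over the 6 libraries, the named genes of at least 1 CPM whose profile was most like that of TRDN were SULT1E1, an oestrogen sulfotransferase (distance 0.161), XKR4, a scramblase family member (0.189), and CHN2, a Rac-regulating chimaerin (0.199). The distance is Euclidean in log2(CPM + 0.1) after centring each gene, over 13858 candidates. SULT1E1 was at 25.49 CPM in parental and 0.2527 CPM in knockout libraries, XKR4 at 50.35 and 0.5839, and CHN2 at 81.41 and 1.014. For TNNI2, the member with the largest positive log2 fold change, the nearest were NABP1 (0.152), SLC25A37 (0.166) and SLC37A2 (0.168). The added 0.1 CPM shrinks a gene as rare as TNNI2 on this scale, and its nearest profiles had log2 fold changes of 2.23, 2.25 and 2.34, against 7.39 for TNNI2 itself. With 2 groups of 3 libraries, likeness of profile is mostly likeness of the difference between genotypes.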

How the data were processed

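RNA from 6 A673 libraries was enriched for polyadenylated transcripts, per the labels' protocols. The authors deposited 1 table of estimated counts per gene, made with kallisto 0.48.0 and hg38, per the submitters' processing notes. The annotation release, the strand setting and the summing of transcripts to genes are not stated there. Estimated counts split reads shared by similar transcripts, so paralogues may trade some reads.

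Rounded counts entered edgeR 4.0.16 under R 4.3.3, after filterByExpr (minimum count 10, minimum total 15). A quasi-likelihood model with TMM factors and a single genotype term covered the 6 libraries. P-values were two-sided, with Benjamini-Hochberg adjustment across all 28485 genes and a threshold of 0.05. The biological coefficient of variation was 7.53%. The steps were tested on simulated data. Of 50 genes changed 1.2-fold 8% were recovered, and of 50 each changed 1.5-, 2- and 4-fold 74%, 86% and 98%. Of 28285 unchanged genes 11 were called. Far fewer genes were changed there than differ between these genotypes, so the simulation did not test the scaling between them.

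The members and gene lists were chosen with earlier results of these data known. From each list the text names up to 4 genes per direction with the highest mean CPM among those that passed, plus preset binding partners, muscle factors and nearest neighbours. Results of some list genes are not reported here. MYLPF stands in the table under another symbol and was matched through RefSeq synonyms. Gene positions came from a GENCODE annotation of GRCh38 and promoters from RefSeq. Coding length is the longest coding sequence annotated for a gene. Replicates within a genotype had a chi-square per degree of freedom of 11.1 to 78.1, so no 2 libraries agreed within sampling noise. Intervals and floors cover counting error only, since no molecular identifiers were counted.

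Alternatives were DESeq2 size factors, total count, upper quartile factors, no filter, a filter of 1 CPM in 3 libraries, the DESeq2 1.42.0 Wald test, limma-voom with limma 3.58.1, a replicate block, leaving out each library and subtracting the share kept in the other genotype.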

Additional observations from a re-analysis of the deposited data

How the results depend on the processing

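The member directions held in every setting that could fit them. Over these settings the log2 fold change of TRDN ranged from -7.41 to -6.92, TNNT1 from -8.54 to -6.35, TNNT2 from 4.53 to 5.15, TNNI3 from -4.73 to -4.00, TNNI2 from 6.92 to 7.74 and CASQ2 from -4.45 to -3.14. TNNI1 ranged from 0.27 to 0.94, TNNC1 from 0.31 to 1.15 and TNNC2 from 0.51 to 1.22. Requiring 1 CPM in 3 libraries left 6650 higher and 6975 lower genes, since fewer were tested, with 0 thin filament partners lower, 1 muscle myosin higher and 3 lower, and 6 muscle cell markers higher and 5 lower. That filter drops the rare members. With total count alone 12 genes of calcium uptake and binding were lower, and with upper quartile factors 8. With total count alone the median of the muscle cell markers was -0.17, TPM3 was -0.24, RCN1 -0.27, TTN -0.16, MEF2C -0.035 and MRPL23 -0.12, and with upper quartile factors TPM3 was -0.016 and RCN1 -0.049. These scalings moved the median of all tested genes from -0.06 to -0.48 and -0.26. Leaving out 1 library gave 10148 to 10562 higher and 9948 to 10852 lower genes. A block for the replicate number gave 10041 higher and 10377 lower genes. Libraries of the same number had correlations of -0.22, -0.03 and 0.05 between their deviations from the group means. Libraries of unlike number ranged from -0.21 to 0.20. With 3 libraries per group these values do not show whether the numbers pair the samples. Depth limits TNNT3, TNNI1, TNNI2, TNNI3, CASQ2 and both troponin C genes, whose lower group held between 0 and 107 counts in all. TRDN held 93.045 counts in all over the knockout libraries.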

Other observations

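Several genes of the lists above, named after their values were seen, showed large differences by edgeR's quasi-likelihood test. At the pointed end of the thin filament, LMOD1, TMOD1 and TMOD2 rose in knockout, while the skeletal TMOD4 fell. LMOD1 went from 0.3425 ± 0.012 to 27.38 ± 0.619 CPM (log2 fold change 6.32, SE 0.0757). TMOD1 went from 0.1597 ± 0.0101 to 11.16 ± 0.331 CPM (6.12, SE 0.0992). TMOD2 went from 1.963 ± 0.0827 to 34.34 ± 2.95 CPM (4.13, SE 0.0715, SD with n = 3 each). At the neuromuscular junction, the kinase MUSK (3.03, SE 0.206) and the receptor anchor RAPSN (2.48, SE 0.273) rose with CHRNA1, while the receptor subunits CHRND (-2.16, SE 0.489) and CHRNG (-1.79, SE 0.422) fell. MUSK, RAPSN, CHRND and CHRNG were below 1 CPM on average in both groups, whereas CHRNA1 reached 34.71 CPM in knockout. Among developmental factors, EYA4 (7.86, SE 0.0886), GATA6 (3.95, SE 0.0641) and TBX20 (5.04, SE 0.227) rose. TBX5, another T-box factor, fell from 0.06294 to 0.002572 CPM (-4.44, SE 0.752). Their list of 23 tested muscle transcription factors held 17 that rose and 5 that fell. CHRNA1 kept 0.646% and EYA4 0.632% of their knockout counts in parental libraries, close to the lowest shares of abundant genes.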
